A study of Arabidopsis thaliana with 4 samples.

Results

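The 6 genes examined here belong to the main route of auxin synthesis: *TAA1*, *TAR2*, *YUC1*, *YUC2*, *YUC4* and *YUC6*. They were defined by locus identifier and not by a rule on measured values, though earlier results of these data were known. They are 6 of the 27206 loci in the expression files. RNA was taken from inflorescences and from siliques until 5 days after pollination (DAP), with 2 biological replicates of wild-type plants (ecotype Columbia) and 2 of homozygous *stk* plants (stk-/-) in the same background. In *stk*, the MADS-box gene *STK*, which acts in ovule identity, carries an insertion near a splice site of the third intron. The sources name short days and long days for plant growth without assigning either to a library. No agent was applied, and each group comes from the whole mixture of flowers and young fruits. In such bulk samples, fewer cells of a type and less RNA per cell cannot be told apart.

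Auxin (indole-3-acetic acid, IAA) is made from tryptophan in a short pathway. Tryptophan aminotransferases, TAA1 and its relatives TAR1 and TAR2, turn tryptophan into indole-3-pyruvate, and flavin monooxygenases of the YUCCA (YUC) family turn indole-3-pyruvate into IAA. The members of each family act redundantly: in flowers, mutants lacking *TAA1* together with *TAR2*, or *YUC1* together with *YUC4*, form abnormal floral organs and gynoecia, while *YUC2* and *YUC6* are needed together for stamens and pollen. In seeds and siliques, local auxin synthesis takes part in patterning the embryo, the endosperm and the fruit.

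The deposited values are RPKM, that is reads divided by exon length and by library size, so that levels of different genes can be set side by side. The values of all gene models of a locus were added. *STK* itself had 38.7 and 40.9 RPKM in wild type against 7.91 and 7.96 RPKM in *stk*. Library sizes recovered from the steps between RPKM values ran from 16965997 to 33673025 reads, with the *stk* libraries the larger. Floral markers were abundant (*SEP3*, a MADS-box gene of the inner floral organs, lay between 126 and 274 RPKM). The seed coat gene *BAN* had 36.9 and 39.8 RPKM in wild type against 77.4 and 89.8 RPKM in *stk*. Of the 5 ovule and seed coat markers, 3 were on average higher and 2 lower in *stk*. *ANT* was among the lower, with 23.8 and 18.4 RPKM in wild type against 16.3 and 15.0 RPKM in *stk*. Of 5 root markers, the root hair genes *RHD6* and *EXPA7* were at 0 in all 4 libraries, and *PLT1* reached at most 0.111 RPKM. *SCR*, which also acts in shoots, lay between 15.1 and 16.3 RPKM. *SHR* was expressed too, with 19.9 and 14.8 RPKM in wild type against 10.1 and 10.4 RPKM in *stk*. The 4 embryo markers were weak, with sums of 1.27 and 0.901 RPKM in wild type against 0.322 and 0.906 RPKM in *stk*. *LEC1* had 1.01 and 0.659 RPKM in wild type against 0.0699 and 0.349 RPKM in *stk*. *WOX8* was higher in both *stk* libraries (at most 0.237 RPKM), and the groups overlapped for *LEC2* and *WOX2*. According to the file headers, *stk* replicate 1 was sequenced in lane 7 and the other libraries in lane 1. Lane and replicate cannot be told apart for that library, so values without it are given below. A log2 fold change here is *stk* minus wild type in log2(RPKM + 1), which understates the change of weakly expressed genes. It was tested with limma over the 19044 loci with a mean of at least 1 RPKM, with Benjamini-Hochberg adjustment.

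The aminotransferase genes were the most abundant of the 6. *TAR2* (AT4G24670, chromosome 4, 12727834 to 12731274, TAIR10, minus strand) had a mean over the 4 libraries of 12.3 RPKM, and *TAA1* (AT1G70560, chromosome 1, 26604855 to 26607503, plus strand) had 11.9 RPKM. These neighbours in the order of levels did not differ beyond their spread, since *TAA1* was the higher in both wild-type replicates and in *stk* replicate 1 and the lower in *stk* replicate 2. *YUC6* (AT5G25620, chromosome 5, 8935040 to 8938758, minus strand) followed with 6.22 RPKM, below both aminotransferase genes in every library. *YUC2* (AT4G13260, chromosome 4, 7721618 to 7723989, minus strand) had 1.90 RPKM. *YUC4* (AT5G11320, chromosome 5, 3611247 to 3613361, minus strand) and *YUC1* (AT4G32540, chromosome 4, 15700904 to 15702960, plus strand) came last, with 0.705 and 0.225 RPKM. The order from *YUC6* down to *YUC1* was the same in all 4 libraries. The reference annotation, TAIR10.1, places 0 other genes over any of the 6 loci.

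**Figure D1:**
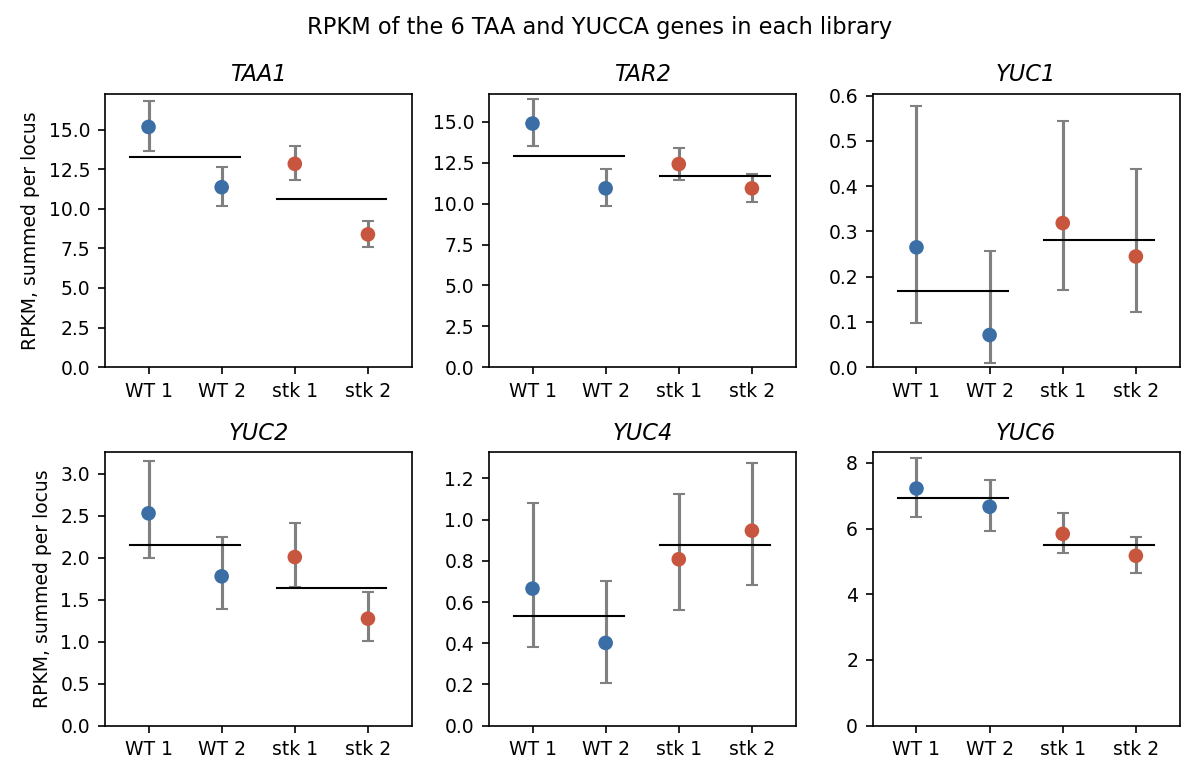
RPKM of each of the 6 genes, summed over its gene models, on the y axis (from 0) for the 2 wild-type (WT) and 2 *stk* libraries on the x axis. Grey bars are 95% Poisson intervals of the reads, which cover counting error only, and black lines are group means. The wild-type and *stk* values do not overlap for *YUC6*, lower in *stk*, and for *YUC4*, higher in *stk*.

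Of the 6 genes, 4 reached the level required for testing: *TAA1*, *TAR2*, *YUC2* and *YUC6*. All 4 had a negative log2 fold change, with a median of -0.27, but 0 of them passed an adjusted p of 0.05 in limma with Benjamini-Hochberg adjustment, and none reached an unadjusted p of 0.05. With an unadjusted limma p of at most 0.05 and means at least 2-fold apart, 0 members were called, where 3.1% of the loci tested were higher and 0.326% lower in *stk*. Among all 19044 loci tested, 0 passed the adjusted threshold in that fit (0% in either direction), 1749 had an unadjusted p under 0.05 (9.18%), and the median log2 fold change was -0.05, with 11385 of them negative. The mutated gene *STK* did not pass either, at a log2 fold change of -2.19 (adjusted p = 0.0884, limma and Benjamini-Hochberg). A member that did not pass is therefore not shown to be unchanged. Baggerley's test, computed here from the RPKM of the 19044 loci, called 0 after adjustment and 31 before it. This form of the test takes summed RPKM, and not reads, as library totals, and it rarely found true changes in simulated data. Before adjustment, it found 0 of 59 loci changed by 1 on the log2 scale. For changes of 2 and 3 it found 14 of 71 and 17 of 70. Its 0 calls therefore do not show that levels were equal. After adjustment, limma found 33 of 59, 70 of 71 and 69 of 70 of the same simulated loci. The measured *STK*, at -2.19, did not pass, so the simulated setting differs from the data. *YUC1* and *YUC4*, which lay below the required level, had positive log2 fold changes and are described by their values.

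*TAA1* encodes the principal tryptophan aminotransferase. It had 15.2 and 11.4 RPKM in wild type against 12.8 and 8.38 RPKM in *stk*. The groups overlapped, wild-type replicate 2 lying below *stk* replicate 1, and the lowest value was that of *stk* replicate 2. The mean went from 13.3 ± 2.69 to 10.6 ± 3.15 RPKM (SD, n = 2), or by -0.31 on the log2 scale, with an error (SE) of 0.24 and a 95% confidence interval from -0.91 to 0.29 (adjusted p = 0.722, limma and Benjamini-Hochberg). This interval reaches from a fall to a slight rise. When single libraries were omitted, the log2 value ran from -0.59 without *stk* replicate 1, which leaves lane 1 alone, to -0.03 without *stk* replicate 2. The 1 gene model of *TAA1* rests on 335 to 549 reads in a library, and the replicates of each genotype lay further apart than their 95% Poisson intervals.

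*TAR2*, the aminotransferase gene that acts redundantly with *TAA1*, had 14.9 and 10.9 RPKM in wild type against 12.4 and 10.9 RPKM in *stk*. Wild-type replicate 1 was the highest library, and the other 3 lay close together. The log2 fold change was -0.12 (SE 0.19, 95% confidence interval -0.59 to 0.34, adjusted p = 0.852, limma and Benjamini-Hochberg). This direction rested on wild-type replicate 1, without which it was 0.08. *TAR2* has 2 gene models in the files, and the longer transcript AT4G24670.2 accounted for 84.2% and 92.4% of its RPKM in wild type against 92.7% and 86.4% in *stk*. How reads were divided between the models of a locus is not stated, so the split is less certain than the sum.

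*YUC6* carried the largest share of YUCCA transcript. It had 7.22 and 6.66 RPKM in wild type against 5.84 and 5.17 RPKM in *stk*, so that both *stk* libraries lay below both wild-type libraries. It was the only tested member of which this held, and the same was found for 5100 of the 19044 loci tested (26.8%). The mean went from 6.94 ± 0.392 to 5.50 ± 0.471 RPKM (SD, n = 2), a difference larger than the SD of either group. On the log2 scale this was -0.29 with an SE of 0.14 (95% confidence interval -0.64 to 0.06, unadjusted p = 0.0892, adjusted p = 0.593, limma and Benjamini-Hochberg). The two-sided exact permutation p was 0.333, and a design of 2 against 2 cannot go lower. When single libraries were omitted, it stayed between -0.36 and -0.21, and without *stk* replicate 1 it was -0.36. The ratio of *stk* to wild type was 0.793 in RPKM. Of its 2 gene models, AT5G25620.2 was listed at 0 in wild-type replicate 1 and made up 28.3%, 19.1% and 19.9% of the sum in the other libraries.

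*YUC2*, which acts with *YUC6* in stamens, had 2.53 and 1.78 RPKM in wild type against 2.01 and 1.27 RPKM in *stk*. The groups overlapped, with wild-type replicate 1 highest and *stk* replicate 2 lowest, as for *TAA1*. The log2 fold change was -0.26 (SE 0.21, 95% confidence interval -0.77 to 0.25, adjusted p = 0.726, limma and Benjamini-Hochberg), and it ran from -0.46 to -0.06 when single libraries were omitted, -0.46 being the value without *stk* replicate 1. *YUC2* rests on 69 to 113 reads in a library.

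STK and other MADS-domain proteins bind CArG boxes, and the 2000 bases before each gene start annotated in TAIR10.1 (RefSeq) were searched for the strict form of this motif (CC, then 6 bases that are A or T, then GG), which reads the same on both strands. It was found upstream of 1 of the 6 genes, *YUC2*, and upstream of 12.8% of the 27444 protein-coding genes of the reference. The site is shown as the sequence found, on the strand of the gene, 5′ to 3′, with the box in capitals and 10 bases on each side. Its first capital lies 207 bases before the gene start of that annotation, 7724070, which is further upstream than the model in the expression files, and the stretch shown spans chr4:7724258-7724287 of TAIR10.1 (minus strand).
*YUC2* upstream site: tatttttataCCTAAAATGGaaagaaaagt
A match of letters describes the window and shows no binding. The study's own search for such boxes in other genes allowed a base mismatch. It also covered a longer upstream stretch, the gene and the stretch after it. Boxes of that looser kind were not counted here.

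*YUC4*, which acts with *YUC1* in floral organ formation, had 0.665 and 0.402 RPKM in wild type against 0.808 and 0.946 RPKM in *stk*. The *stk* values thus exceeded both wild-type values, as they did for 16.3% of the loci tested, with a ratio of means of 1.64 and a log2 fold change of 0.30 (SE 0.14), which was not part of the main test. In a fit without the filter on low values the adjusted p was 0.593 (limma with Benjamini-Hochberg adjustment). The main model, AT5G11320.1, rests on 16 and 12 reads in wild type and 35 and 34 reads in *stk*. In *stk* replicate 2 a further 0.234 RPKM came from the model AT5G11320.2, which was at 0 in the other libraries and whose reads could not be fixed to a number. On the main model alone the values were 0.665 and 0.402 RPKM in wild type against 0.808 and 0.712 RPKM in *stk*. The 95% Poisson intervals of wild-type replicate 1 (0.380 to 1.08 RPKM) and of both *stk* libraries overlapped.

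*YUC1* was barely detected. It had 0.265 and 0.0711 RPKM in wild type against 0.319 and 0.245 RPKM in *stk*, that is 6 and 2 reads against 13 and 11 reads. Wild-type replicate 2 was the lowest library, and the other 3 overlapped between genotypes. The log2 fold change of 0.14 had a SE of 0.13, and the 95% Poisson interval of wild-type replicate 2 reached from 0.00861 to 0.257 RPKM, above the value of *stk* replicate 2. The pooled reads, scaled to library size, had a ratio of *stk* to wild type of 1.78 with a 95% counting interval from 0.772 to 4.57, which includes equal levels. So did that of *TAR2* (0.839 to 1.005). Those of *TAA1* (0.729 to 0.888), *YUC2* (0.617 to 0.9585), *YUC6* (0.711 to 0.888) and *YUC4* (1.06 to 2.64) did not. The *YUC4* interval includes 9 reads of AT5G11320.2, a number that is not certain. All of these cover counting error only and compare the libraries, not the genotypes.

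**Figure D2:**
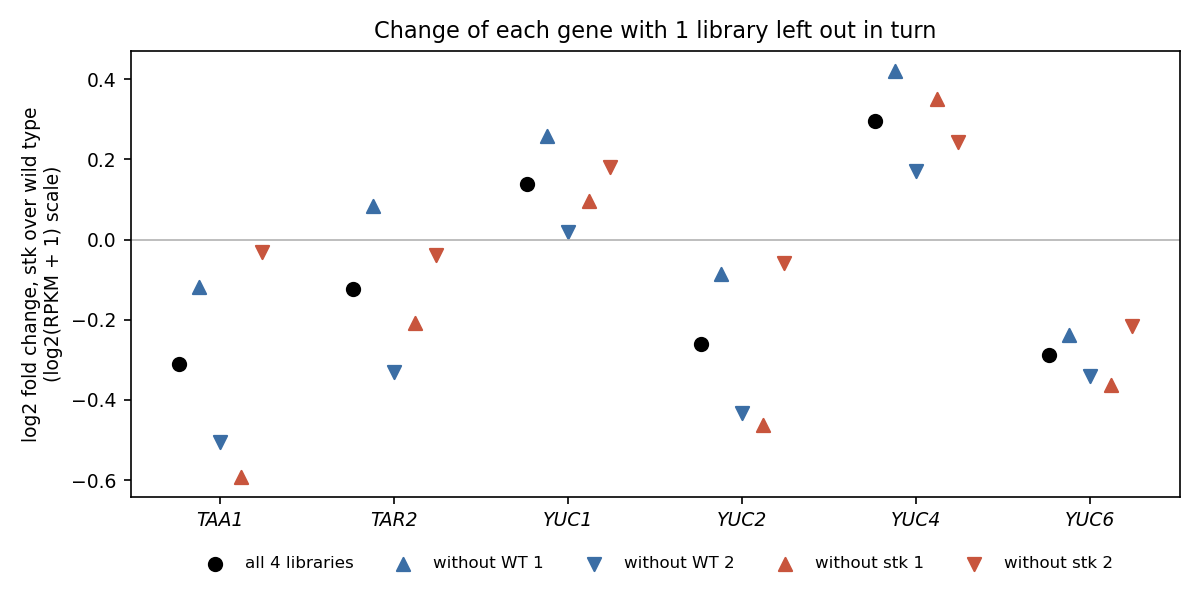
Log2 fold change of *stk* over wild type on the log2(RPKM + 1) scale (y axis) for each of the 6 genes (x axis), with all 4 libraries (black circles) and with 1 library left out (triangles). *TAR2* crosses 0, from -0.33 to 0.08, while the values of the other genes keep their sign.

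The steps of the pathway were also set against each other. *TAA1* and *TAR2* together had 30.1 and 22.3 RPKM in wild type against 25.3 and 19.3 RPKM in *stk*, and the 4 YUC genes together had 10.7 and 8.91 RPKM in wild type against 8.97 and 7.63 RPKM in *stk*. The ratio of these sums was 2.82 and 2.50 in wild type against 2.82 and 2.53 in *stk*, the genotypes covering nearly the same range. Within each genotype, replicate 1 had the higher sum of both steps and the higher ratio. *TAA1*, *TAR2*, *YUC2* and *YUC6* were each higher in replicate 1 than in replicate 2 of both genotypes, which was also so for 52% of the loci tested. *YUC6* made up 67.6% and 74.8% of the RPKM of the 4 YUC genes in wild type against 65.1% and 67.7% in *stk*, ranges that overlap. *YUC4* made up 6.23% and 4.51% in wild type against 9.0% and 12.4% in *stk*, ranges that do not overlap. The 12.4% includes 0.234 RPKM of the model AT5G11320.2, whose reads are not certain. How often such shares part between 2 libraries of each genotype was not tested.

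By the distance between centred log2(RPKM + 1) values over the 4 libraries, *TAA1* and *YUC2* had the most alike profiles of the 4 tested members. Their distance was 0.126, and 0.247% of all loci tested were nearer to *TAA1* than *YUC2* was. The distance of *TAA1* from *TAR2* was 0.335 and from *YUC6* 0.356. For *TAA1*, the tested member with the largest absolute log2 fold change, the 5 nearest loci were AT3G56810, *EXL6* (AT1G75930), AT1G07400, AT2G20940 and AT3G56730, at distances from 0.0365 to 0.0707. In all, 244 of 19043 loci lay within 0.2 of *TAA1*.

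The other members of both families give the context of these levels. *TAR4* (6.36 and 8.91 RPKM in wild type against 7.45 and 7.50 RPKM in *stk*) was the most abundant of the other 10 genes, and *TAR3*, *YUC3* and *YUC8* lay between 0.834 and 2.73 RPKM. These 4 genes were tested, and 0 had an adjusted or an unadjusted p under 0.05 in limma. The log2 fold changes were 0.11 for *TAR3*, -0.01 for *TAR4*, -0.11 for *YUC3* and -0.21 for *YUC8*. *YUC5*, *YUC7* and *YUC9*, known mainly from roots and seedlings, had 0 to 3 reads in any library, and *YUC11* had 0 to 6. The 4 described YUC genes made up 66.4% to 75.0% of the RPKM of all 11 YUC genes, and *YUC6* alone made up 50.7% and 49.7% in wild type against 43.8% and 47.0% in *stk*.

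**Figure D3:**
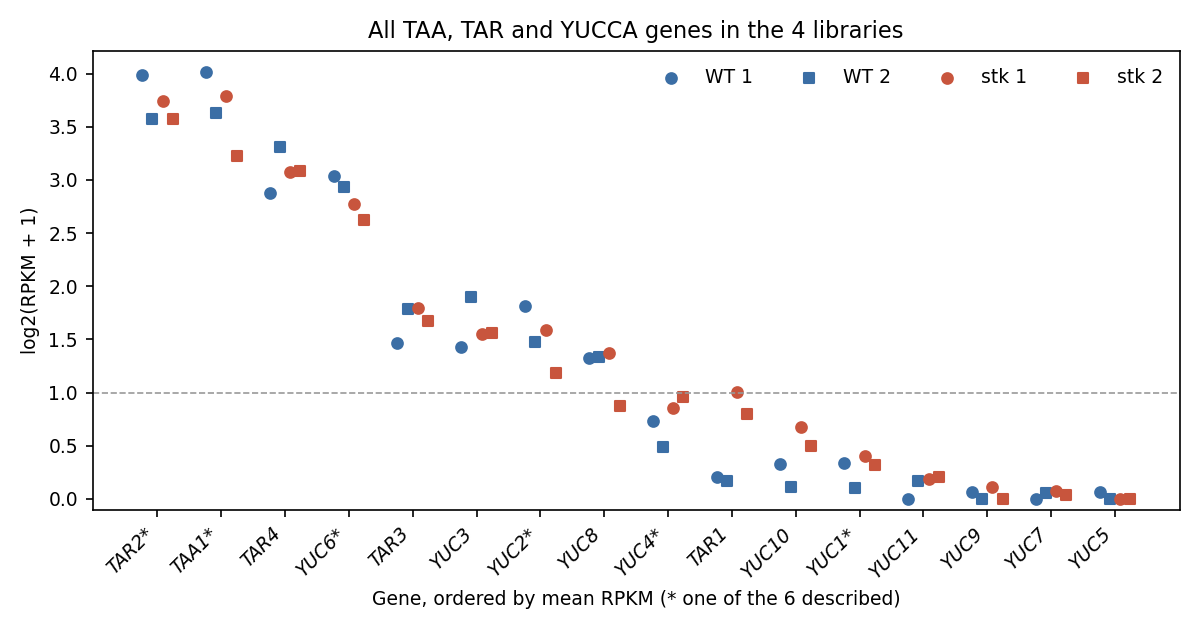
Level of all 16 TAA, TAR and YUC genes as log2(RPKM + 1) on the y axis, ordered by mean RPKM on the x axis, with a point for each library (blue, wild type; red, *stk*; circles, replicate 1; squares, replicate 2). Asterisks mark the 6 genes described, and the dashed line is 1 RPKM. The *stk* points of *TAR1*, *YUC10*, *YUC4* and *YUC11* lie above their wild-type points. The same was found for 16.3% of the loci tested, to which these weakly expressed genes do not belong.

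*TAR1* and *YUC10*, which in Arabidopsis are known from the endosperm, had the largest ratios of *stk* to wild type in the families among genes with more than 3 reads in wild type. *TAR1* had 0.152 and 0.122 RPKM in wild type (3 and 3 reads) and 1.01 and 0.738 RPKM in *stk* (36 and 29 reads). Its pooled reads, scaled to library size, were 6.42 times higher in *stk*, with a 95% counting interval from 2.79 to 18.1. *YUC10* had 0.256 and 0.0824 RPKM in wild type (5 and 2 reads) and 0.596 and 0.412 RPKM in *stk* (21 and 16 reads), a ratio of 3.13 with a 95% counting interval from 1.38 to 8.32. These intervals compare the libraries and not the genotypes. Both genes lay below the level required for testing, and without that filter their adjusted p was 0.584 for each (limma with Benjamini-Hochberg adjustment; unadjusted p = 0.00304 for *TAR1* and 0.0501 for *YUC10*). They were singled out after their values were seen. The summed RPKM of the 4 endosperm markers (*AGL62*, *FIS2*, *PHE1* and *MEA*) was 2.70 and 5.51 in wild type against 7.78 and 7.35 in *stk*. Of these, *PHE1*, an imprinted MADS-box gene of the endosperm, had 1.54 and 3.28 RPKM in wild type against 4.36 and 5.02 RPKM in *stk*. Its adjusted p was 0.514 (limma and Benjamini-Hochberg). *PHE1* and *AGL62* were higher in both *stk* libraries, as were 16.3% of the loci tested. The groups overlapped for *FIS2* (0.270 and 0.398 RPKM in wild type against 0.399 and 0.351 RPKM in *stk*). They also overlapped for *MEA* (0.257 and 0.538 RPKM in wild type against 0.757 and 0.531 RPKM in *stk*). The part of the endosperm in the values of *TAR1* and *YUC10* was not tested.

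Genes that supply tryptophan showed small differences. All 7 were tested, and 0 had an unadjusted p under 0.05, with a median log2 fold change of -0.12 and negative values for 6. *TSB1*, the tryptophan synthase beta subunit and the most abundant of them, had 32.9 and 29.4 RPKM in wild type against 32.9 and 26.6 RPKM in *stk*. *ASA1*, the anthranilate synthase subunit at the entry of the pathway, had the largest difference, with 13.2 and 10.2 RPKM in wild type against 9.39 and 8.45 RPKM in *stk*. On the log2 scale the difference was -0.35 (SE 0.17, adjusted p = 0.593, limma and Benjamini-Hochberg).

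Of the 7 genes of other routes towards IAA, all were tested and all had negative log2 fold changes, with a median of -0.33. An unadjusted p under 0.05 was found for 1 of them, lower in *stk*, against 3.53% of all loci. This was *NIT3*, a nitrilase gene, with 3.83 and 4.10 RPKM in wild type against 2.78 and 2.44 RPKM in *stk* (log2 fold change -0.46, unadjusted p = 0.0175, adjusted p = 0.513, limma and Benjamini-Hochberg). *NIT1*, the abundant nitrilase gene, had 708 and 623 RPKM in wild type against 696 and 566 RPKM in *stk*. *CYP79B2*, which turns tryptophan into indole-3-acetaldoxime, had the largest difference of the list. Its 10.8 RPKM in wild-type replicate 1 stood apart from 4.64 RPKM in wild-type replicate 2 and from 4.73 and 4.32 RPKM in *stk*.

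Among 18 genes of IAA inactivation and release, 14 were tested, and the median log2 fold change was -0.03. An unadjusted p under 0.05 was found for 1 gene higher (5.66% of all loci) and for 1 gene lower in *stk*. *IAMT1*, which methylates IAA, was the higher, with 14.6 and 15.6 RPKM in wild type against 27.8 and 22.8 RPKM in *stk*. The log2 fold change of 0.71 had a SE of 0.16 (unadjusted p = 0.00473, adjusted p = 0.424, limma and Benjamini-Hochberg). *GH3.17*, which joins IAA to glutamate, was the lower, with 13.1 and 15.6 RPKM in wild type against 10.2 and 10.5 RPKM in *stk* (log2 fold change -0.43, adjusted p = 0.514, limma and Benjamini-Hochberg). *VAS1*, an aminotransferase that uses up the indole-3-pyruvate made by TAA1, was the most abundant, with 46.2 and 39.9 RPKM in wild type against 44.2 and 40.9 RPKM in *stk*.

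Of 13 transcription factor genes known to act on TAA or YUC genes, 12 were tested, with a median log2 fold change of -0.15 and 10 negative values, where 11385 of all 19044 loci were negative. *SHI*, of the SHI/STY family whose member STY1 activates *YUC4*, was the only gene of the list with an unadjusted p under 0.05 in limma, lower in *stk* as were 3.53% of all loci. It had 3.21 and 3.16 RPKM in wild type against 2.02 and 2.22 RPKM in *stk* (log2 fold change -0.42, unadjusted p = 0.0211, adjusted p = 0.514 with Benjamini-Hochberg adjustment). *CRC*, a YABBY gene of carpels and nectaries, had the largest difference, with 27.9 and 18.6 RPKM in wild type against 17.2 and 15.2 RPKM in *stk*, and *AG*, the stamen and carpel identity gene, was the most abundant, with 35.6 and 30.4 RPKM in wild type against 33.0 and 28.7 RPKM in *stk*.

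**Figure D4:**
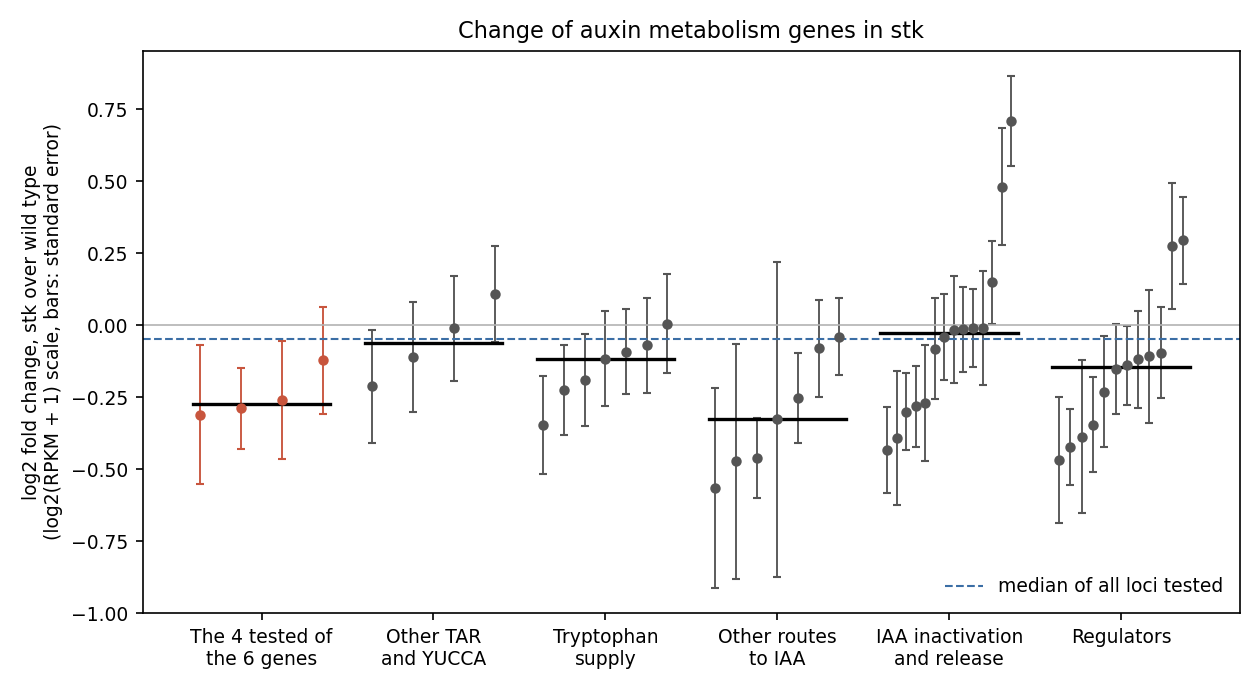
Log2 fold change of *stk* over wild type on the log2(RPKM + 1) scale (y axis) for the tested genes of each list (x axis), with SEs as bars and the list median as a black line. The median of the 4 tested members is -0.27, the dashed line marks the median of all loci tested, -0.05, and *IAMT1*, at 0.71, is the highest point.

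Because the 6 genes act in particular floral tissues, marker levels stand beside their values. Of 5 tapetum markers, *AMS*, a regulator of the tapetum, had 33.7 and 24.1 RPKM in wild type against 17.8 and 14.7 RPKM in *stk*, lower in both *stk* libraries as *YUC6* was. *MYB80* and *MS1* did the same, as did 26.8% of the loci tested. The groups overlapped for the remaining tapetum markers. *A9* had 30.8 and 23.9 RPKM in wild type against 75.3 and 18.4 RPKM in *stk*. *DYT1*, below the level required for testing, had 0.283 and 0.0760 RPKM in wild type against 0.472 and 0.0476 RPKM in *stk*. Summed over the 5 tapetum markers, RPKM was 70.8 and 52.4 in wild type against 97.4 and 36.4 in *stk*, with 0 of the markers at 0. The 5 pollen markers summed to 410 and 357 RPKM in wild type against 367 and 328 RPKM in *stk*, and the 5 floral organ markers to 458 and 403 RPKM in wild type against 564 and 417 RPKM in *stk*. The floral sums overlapped between genotypes, and only *stk* replicate 1 lay above both wild-type libraries. *SEP3* was higher in both *stk* libraries (140 and 126 RPKM in wild type against 274 and 193 RPKM in *stk*), as were 16.3% of the loci tested. *AP1*, *AP3*, *PI* and *AG* had log2 fold changes of -0.28, -0.12, -0.31 and -0.10. *VGD1*, the most abundant pollen marker, had a log2 fold change of -0.20. The part of these tissues in the values of *YUC6* and *YUC2* was not tested.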

How the data were processed

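The authors trimmed the reads, mapped them to TAIR10 with at most 2 mismatches in CLC Genomics Workbench 4.7.1, shared reads with several positions in proportion to unique reads, and deposited RPKM per gene model for each of the 4 libraries. Use of strand is not stated. The deposited tables of enriched terms hold the authors' own comparison and were not used.

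RPKM of all models was summed per locus, and log2(RPKM + 1) was compared with limma 3.58.1 in R 4.3.3 (lmFit, eBayes; 2 wild-type against 2 *stk* libraries, genotype alone), with Benjamini-Hochberg adjustment over loci with a mean of at least 1 RPKM. The study's methods name Baggerley's test, which was run as an alternative. Library sizes were recovered from the RPKM steps of 5218 genes with a single model and reference exon lengths (96.1% to 97.4% of low values within 0.05 of a whole read), and reads of the TAA, TAR and YUC genes by fitting their exon length to whole reads within 0.005. Poisson intervals cover counting error only. The fits were tested on simulated data. Other steps used Python 3.11.15, pandas 2.3.3 and scipy 1.17.1. Gene names came from the TAIR10.1 table, in which all 93 listed loci matched.

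The members and lists were chosen with earlier results of these data known. Named were all members and relatives, and from each other pathway list the genes with an unadjusted p under 0.05, the most abundant gene and that with the largest change, and from the marker lists the most abundant genes. *TAR1*, *YUC10* and further markers were singled out once their values had been seen.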

Additional observations from a re-analysis of the deposited data

How the results depend on the processing

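The log2 fold changes of *TAA1*, *YUC2* and *YUC6* stayed negative and those of *YUC1* and *YUC4* positive under every alternative that gave them a value. Of *TAA1*, *TAR2*, *YUC2* and *YUC6*, 0 passed an adjusted p of 0.05 under any alternative. That of *TAR2* reversed, to 0.0843, without wild-type replicate 1. When single libraries were omitted, the values ran from -0.59 to -0.03 for *TAA1*, from -0.33 to 0.08 for *TAR2*, from -0.46 to -0.06 for *YUC2*, from -0.36 to -0.21 for *YUC6*, from 0.02 to 0.26 for *YUC1* and from 0.17 to 0.42 for *YUC4*. *YUC1* and *YUC4* moved to 0.60 and 0.65 with a pseudocount of 0.1 and to 0.68 and 0.65 with Baggerley's test, whose ratio has no pseudocount. *YUC1* and *YUC4* were tested only without the filter on low values, where 0 passed (adjusted p of 0.759 and 0.593, limma), and they had no value where every library had to reach 1 RPKM, after removal of the exon length trend or as single gene models.

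The count of 0 loci lower in *stk* became 5 with quantile normalization, 5 with libraries centred on their median, 4 with the exon length trend removed, 1 with limma's trend option and 2 with gene models tested on their own, while 0 loci were called higher there. With an unadjusted limma p of at most 0.05 and means at least 2-fold apart, 590 loci were higher and 62 lower. Omitting 1 library gave between 0 and 1497 loci higher and between 0 and 97 lower, the most higher without *stk* replicate 2 and the most lower without *stk* replicate 1, where the lone library is assumed to vary like the others. With the replicate number as a block, 0 loci were called (2067 at an unadjusted p under 0.05) and all members kept their log2 fold changes. The deviations of equally numbered replicates had a correlation of -0.127 across loci. With crossed numbers, chosen after seeing the data, 844 loci were higher and 77 lower. The cause of these differences was not tested. *YUC1* rests on 2 to 13 reads in a library and the main model of *YUC4* on 12 to 35.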
